A study of Danio rerio with 9 samples.

Results

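The 10 genes described here belong to the middle and lower part of glycolysis and were followed in zebrafish embryos that had received mRNA for a hypoxia-inducible factor. They are the aldolases aldoaa, aldoab and aldocb, the phosphoglycerate kinase pgk1, the phosphoglycerate mutases pgam1a and pgam1b, the pyruvate kinases pkma and pkmb, and the lactate dehydrogenases ldha and ldhba. The genes were chosen by enzyme name, through the RefSeq accession that each array probe carries. All 10 were found, with 31 of the 43603 probes, and all 31 passed the filter on dim probes, as did 31116 probes in all. After the brightest probe was taken for each gene, the 10 genes stood among 19549 genes or transcripts tested.

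The embryos were of the Tuebingen strain and were collected whole at 12 h after fertilization. One group had been injected with mRNA for Hif-1 (Hif-1a in the labels), another with mRNA for Hif-3 (Hif-3a in the labels), and the control group with mRNA for green fluorescent protein (GFP). Each group held 3 arrays, each of the RNA of a pool of 60 embryos, from 3 independent microinjection experiments. All groups carried an injected mRNA, no uninjected embryos were analysed here, and the dose and the protein made from the mRNA are not given in the sources used here.

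Glycolysis breaks glucose down to pyruvate and yields ATP without oxygen. Aldolase splits the phosphorylated hexose into triose phosphates. Phosphoglycerate kinase and pyruvate kinase make ATP, phosphoglycerate mutase moves a phosphate group between them, and lactate dehydrogenase reduces pyruvate to lactate, which regenerates the NAD that glycolysis needs. Hypoxia-inducible factors are transcription factors whose alpha subunits are degraded when oxygen is present, and in mammals the genes of these enzymes are classical targets of HIF-1. Teleost fish hold many such genes as pairs of copies, marked a and b, from a genome duplication in their ancestry.

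Levels are log2 signals relative to the 75th percentile of the array, errors of a difference are standard errors (SE), and p-values are two-sided, from limma, adjusted over all genes or transcripts tested unless probes are named. Levels of different probes cannot be set against each other on such arrays, so each gene is compared with itself. Between 67.6% and 75.3% of probes lay well above background on an array, and the precision is bounded by there being only 3 arrays in each group. Hif-3 replicate 1 had the lowest of these shares and 437 spots with an outlier flag, against 3 to 24 elsewhere. The injected Hif-3 RNA was seen at hif1al, listed with the synonym Hif-3alpha, where 3 of 4 probes were 5.85 to 8.49 log2 units higher on the Hif-3 arrays than on the controls and the remaining probe differed by -0.02. Injected Hif-1 RNA was not analysed here under its own name. Markers of somites and muscle, notochord, neural tissue, epidermis, yolk syncytial layer, blood and vessels and germ cells were well above background for nearly all tested genes on each array: 9 or 10 of 10 for somites and muscle, 2 or 3 of 3 for the yolk syncytial layer, and all tested genes of the other lists.

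In the Hif-1 embryos 6 of the 10 enzyme genes were higher than in the GFP controls and none was lower. They were the aldolases aldoaa and aldocb, pgk1, pgam1a, pkma and ldha, at least 1 gene for each of the 5 enzyme steps. The rises ran from 1.81-fold for aldoaa to 34.4-fold for aldocb. The other 4 genes, aldoab, pgam1b, pkmb and ldhba, did not pass. Of all genes tested, 9.51% were called, 5.74% higher and 3.77% lower. The median log2 difference was 1.60 over the 10 genes and -0.01 over all genes tested. When normexp-corrected signals were scaled to the 75th percentile none of the 6 passed, where 0.0256% of all genes were called. Their differences kept their sign. After quantile normalization of such signals 6 of the 10 passed, where 9.67% of all genes were called. In the authors' normalized matrix 5 passed, without pkma (2.48, adjusted p = 0.0973), where 8.55% of all genes were called. In RNA of whole embryos, a change in the number of cells of a type and a change in RNA per cell cannot be told apart.

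**Figure D1:**
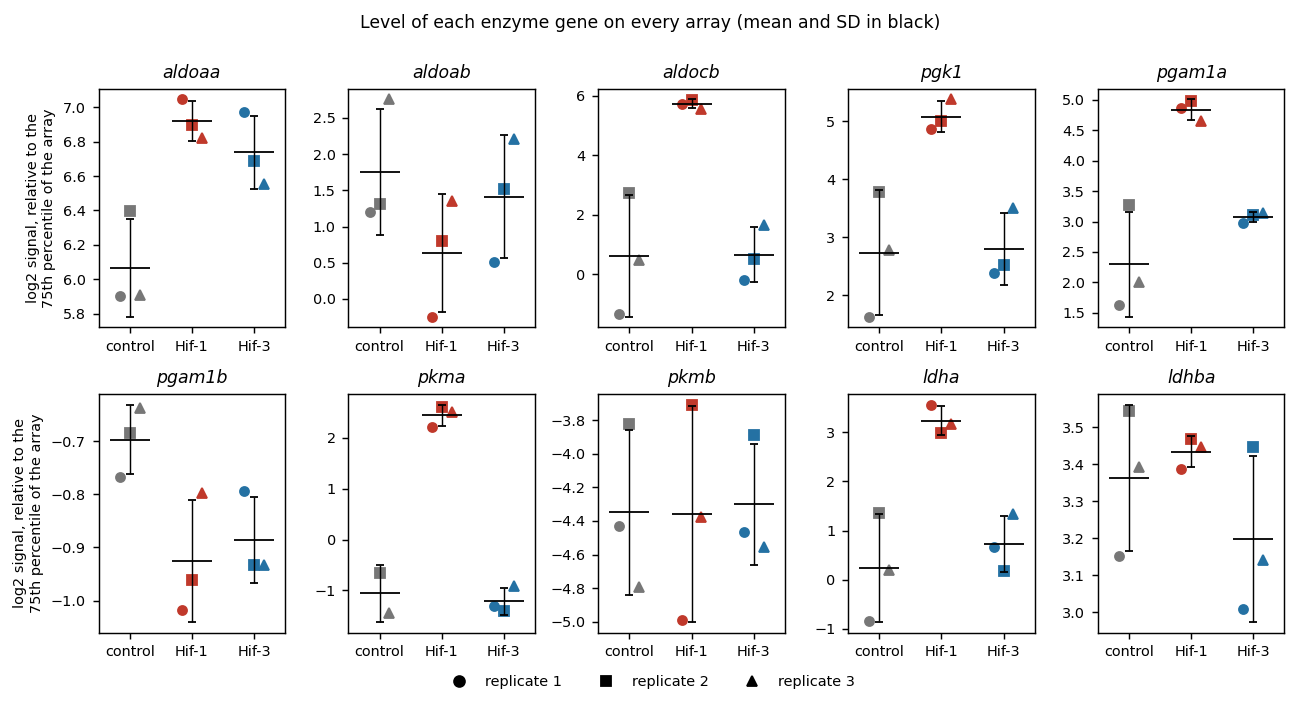
Levels of the 10 enzyme genes on every array, as log2 signal relative to the 75th percentile of the array (vertical axes, each with its own range), by group. Points are arrays with a shape for each replicate number, and black lines give the mean and SD. The Hif-1 arrays lie above all control arrays in aldoaa, aldocb, pgk1, pgam1a, pkma and ldha, with no point for pkma on control replicate 1.

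Among the aldolases, aldocb had the widest contrast. In mammals the aldolase of this type is known from brain. It stood at -1.36, 2.75 and 0.48 in control replicates 1, 2 and 3, at 5.74, 5.88 and 5.57 in the Hif-1 arrays and at -0.20, 0.51 and 1.64 in the Hif-3 arrays. The Hif-1 arrays were all high and close together, while the controls spread over more than 4 log2 units and overlapped the Hif-3 arrays. The difference between Hif-1 and control was 5.11 ± 0.91 (SE), or 34.4-fold, with a 95% interval of 3.03 to 7.18 log2 units (adjusted p = 0.0172). Its call was lost without control replicate 3, Hif-1 replicate 1 or Hif-1 replicate 3 (adjusted p = 0.0565 to 0.0625), where the difference was 5.04 to 5.18.

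The muscle type aldolase aldoaa changed far less. Its levels were 5.90, 6.40 and 5.91 in the controls, 7.05, 6.90 and 6.82 with Hif-1 and 6.97, 6.69 and 6.55 with Hif-3. Every Hif-1 and Hif-3 array lay above every control array, and the ranges with Hif-1 and Hif-3 overlapped. Hif-1 raised the level by 0.85 ± 0.18, or 1.81-fold (adjusted p = 0.0258). The call was lost without control replicate 1 or 3 or any 1 of the Hif-1 replicates (adjusted p = 0.0583 to 0.0902).

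Its copy aldoab leaned the other way. The levels were 1.20, 1.31 and 2.76 in the controls, -0.24, 0.80 and 1.35 with Hif-1 and 0.52, 1.51 and 2.21 with Hif-3. Replicate 3 was the highest and replicate 1 the lowest in each group, and the groups overlapped. The difference with Hif-1 was -1.12 ± 0.59 (adjusted p = 0.250). With the replicate number as a block the same difference had an SE of 0.21 and passed (adjusted p = 0.0161), in a fit that called 22.5% of all genes, 11.7% higher and 10.9% lower.

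pgk1, which makes ATP from the bisphosphate of glycerate, stood at 1.63, 3.79 and 2.79 in the controls, 4.86, 5.0 and 5.38 with Hif-1 and 2.37, 2.52 and 3.50 with Hif-3. The Hif-1 arrays lay above all other arrays, and the Hif-3 arrays lay within the range of the controls. It rose with Hif-1 by 2.35 ± 0.52, or 5.09-fold (adjusted p = 0.0304). Without control replicate 1 or 3 or any 1 of the Hif-1 replicates it did not pass (adjusted p = 0.0658 to 0.0917).

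The mutase pgam1a had levels of 1.62, 3.27 and 2.00 in the controls, 4.87, 4.99 and 4.65 with Hif-1, and 2.98, 3.11 and 3.14 with Hif-3. The Hif-1 arrays were the highest, and the Hif-3 arrays, close together, exceeded 2 of the 3 controls but not control replicate 2. The rise with Hif-1 was 2.54 ± 0.36, or 5.82-fold (adjusted p = 0.0088), and it passed whichever 1 of the 9 arrays was left out. Its copy pgam1b was nearly level, at -0.77, -0.69 and -0.64 in the controls, -1.02, -0.96 and -0.80 with Hif-1 and -0.79, -0.93 and -0.93 with Hif-3. All Hif-1 and Hif-3 arrays lay slightly below all controls. The difference with Hif-1 was -0.23 ± 0.11 (adjusted p = 0.227), with a 95% interval of -0.49 to 0.03. It is the only member with all Hif-1 arrays below all controls, which held for 16.8% of all genes, while 5 members had all Hif-1 arrays above all controls, as did 17.2% of all genes.

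Pyruvate kinase makes the last ATP of the pathway. pkma stood at -0.66 and -1.45 in control replicates 2 and 3, at 2.21, 2.61 and 2.51 with Hif-1 and at -1.31, -1.41 and -0.92 with Hif-3. Control replicate 1 carried an outlier flag at this spot, so the control mean rests on the other control arrays. The flagged value was 2.30, in the range of the Hif-1 arrays, whereas another pkma probe, A_15_P119615, read -2.19 on that array. The flagged value was kept when this probe was chosen as the brightest of pkma. pkma rose with Hif-1 by 3.50 ± 0.27, or 11.3-fold (adjusted p = 0.0022). It passed whichever 1 Hif-1 or Hif-3 array was left out. Leaving out control replicate 1 removed no value of this probe, and leaving out control replicate 2 or 3 left a single control value. No call of pkma is drawn from the fits without a control array. With the flagged value kept the difference was 2.38 ± 0.80 and did not pass (adjusted p = 0.101). A_15_P119615, with a value on all 9 arrays, gave 4.07 ± 0.36 (adjusted p = 0.0017 over all probes).

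pkmb was dim, and its probes disagreed. The brighter probe read -4.43, -3.82 and -4.79 in the controls, -4.99, -3.71 and -4.38 with Hif-1 and -4.46, -3.89 and -4.56 with Hif-3. The groups overlapped throughout, and the difference with Hif-1 was -0.01 ± 0.37 (adjusted p = 0.989). The other probe, A_15_P623101, was not well above background on any control or Hif-3 array and was on all 3 Hif-1 arrays, at -3.97, -4.12 and -4.73. It was at least 3.30-fold higher with Hif-1 than in the controls. It passed the filter on dim probes through the Hif-1 arrays alone, so it had to be high there, and its test is given no weight. Such a bound sets the bright mean against the lowest signal that counted as well above background on the dim arrays, or the probe's own signal where that was higher. Binding of pkma RNA to this probe was not tested, since no probe sequences were used.

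Of these lactate dehydrogenases ldha, whose form favours lactate formation in mammals, rose with Hif-1, and ldhba did not pass. ldha stood at -0.83, 1.36 and 0.19 in the controls, 3.56, 2.98 and 3.18 with Hif-1 and 0.67, 0.18 and 1.33 with Hif-3. The Hif-1 arrays were well clear of the others, and the Hif-3 arrays lay inside the range of the controls. The rise with Hif-1 was 3.00 ± 0.52, or 8.0-fold (adjusted p = 0.0159). It was lost without control replicate 3, Hif-1 replicate 1 or Hif-1 replicate 3 (adjusted p = 0.0534 to 0.0599). ldhba, of the form that in mammals is known from heart, read 3.15, 3.54 and 3.39 in the controls, 3.39, 3.47 and 3.45 with Hif-1 and 3.01, 3.45 and 3.14 with Hif-3. The 3 groups overlapped, and its difference with Hif-1 was 0.07 ± 0.15 (adjusted p = 0.798), with a 95% interval of -0.28 to 0.42.

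By probe, 21 of the 31 were higher with Hif-1 and none was lower, where 8.49% of all probes were called, 5.28% higher and 3.2% lower. Of these, 1 probe of pkma (A_15_P749616) and 1 of pkmb (A_15_P623101) passed the filter on dim probes through the Hif-1 arrays alone, where they are high. Without such probes, a count added after seeing the data, 19 of 29 were higher, against 4.95% of all probes. All 5 probes of aldocb passed, with differences of 2.35 to 5.35 log2 units, and so did the 5 of pkma that did not enter through the Hif-1 arrays alone, with 3.50 to 4.14. The 3 probes of pgam1a differed by 2.54 to 2.66, both of pgk1 by 2.35, and those of ldha by 3.00 and 3.12, and all of these passed. For aldoaa 2 probes passed, at 0.85 and 0.92, and the third, A_15_P117231, differed by 0.74 ± 0.39 (adjusted p = 0.255 over all probes). Neither probe of aldoab (-1.12 and -1.31) or pgam1b (-0.23 and -0.14) passed, nor did any of the 4 of ldhba (0.07 to 0.23). The second probe of aldoab read -7.54 on Hif-3 replicate 1, where it was not well above background. Probes of 1 gene share its RNA and are not replicates. On all 9 arrays 24 of the probes were well above background.

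The copies of an enzyme were also set against each other. Within each array the log2 difference between aldocb and aldoaa was 4.25 greater with Hif-1 than in the controls, that between pgam1a and pgam1b 2.77 greater, that between ldha and ldhba 2.93 greater and that between pkma and pkmb, at its brighter probe, 3.55 greater. The difference between aldoaa and aldoab was 1.98 greater. Between aldocb and aldoab it was 6.23 greater. In these pairs no Hif-1 array overlapped a control array. Each pair holds a gene whose Hif-1 arrays already lay above all its measured controls, as held for 17.2% of all genes. No share was drawn for ratios of other genes, so the lack of overlap is only a description. The exact permutation test gave a two-sided p of 0.1 for each pair with 3 arrays a group, the smallest this design allows, and 0.2 for pkma and pkmb with 2 control arrays, likewise the smallest. Adjusted over the 18 such tests, these were 0.18 and 0.3, so none passed. The other pkmb probe was not well above background on any control array and entered through the Hif-1 arrays alone. No ratio was drawn from it. Since each ratio stays within an array, the scaling of the arrays does not enter it. A difference in the binding of the probes was not tested.

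In the Hif-3 embryos none of the 10 genes passed against the same controls, and none of the 31 probes. Of all genes 0.00512% were called in this comparison, a single gene, and 0.0321% of probes. At an unadjusted p under 0.05 there was 1 of the 10 genes, aldoaa, and 2 of the 31 probes, both of aldoaa. The median difference was 0.04 over the 10 genes and 0.02 over all genes tested. The difference for aldoaa was 0.67 ± 0.18, or 1.59-fold (unadjusted p = 0.0049, adjusted p = 0.496), with all Hif-3 arrays above all controls, as in 6.99% of genes. pgam1b had all Hif-3 arrays below all controls, as in 4.24% of genes, with a difference of -0.19 ± 0.11 (adjusted p = 0.866). For pgam1a it was 0.78 ± 0.36 (adjusted p = 0.830), with a 95% interval of -0.05 to 1.61.

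The intervals for the other genes show what the arrays could resolve. At the probe that stands for aldocb the difference between Hif-3 and control was 0.03, with a 95% interval of -2.04 to 2.10. A change of 4-fold in either direction lies within it. Other aldocb probes had narrower intervals: -0.14 to 1.31 at A_15_P728291, -0.69 to 1.65 at A_15_P100837 and -0.81 to 1.66 at A_15_P485790. At A_15_P171261 it was -1.82 to 2.19. For pgk1 the interval was -1.11 to 1.24 and for ldha -0.69 to 1.67. That of ldhba (-0.52 to 0.19) was narrower. For pkma, at the probe that stands for it, the difference was -0.16 without the flagged control value. It was -1.28 with that value and -1.32 in the authors' matrix, and none of these passed. The other pkma probes, some of them dim, gave 0.23 (A_15_P119615), 0.22 (A_15_P194371), 0.72 (A_15_P733066), 0.43 (A_15_P738266) and -0.07 (A_15_P749616), and none passed. The SD of the controls was 2.06 for aldocb, 1.10 for ldha and 1.08 for pgk1, against a median of 0.23 over all genes, and that of the Hif-3 arrays was 0.93, 0.58 and 0.62, against a median of 0.21. Only 0.156% of genes had a control SD as large as that of aldocb at this probe. At its other probes the control SD was 0.69 (A_15_P728291), 1.22 (A_15_P100837), 1.23 (A_15_P485790) and 2.00 (A_15_P171261).

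Control replicate 2 was the highest control for each of the 5 rising genes with 3 control values, and for pkma the higher of the pair measured. Over all genes it was the highest control in 30.8%, and among all genes called higher with Hif-1 in 62.7%. The Hif-1 arrays of the same genes had SDs of 0.11 to 0.30, on both sides of the median of 0.21 over all genes. Without control replicate 2 the difference between Hif-3 and control was 1.09 for aldocb, 1.05 for ldha and 1.27 for pgam1a (adjusted p = 0.0878 for pgam1a), and none passed.

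Taken by replicate number, aldoaa, aldocb, pgk1, pgam1a and ldha, at the probe that stands for each, were higher with Hif-1 in each replicate and by the least in the second, while pkma had no value in replicate 1 and was higher in the other replicates. For aldocb it was 7.10, 3.13 and 5.09 log2 units in replicates 1, 2 and 3, and for ldha 4.39, 1.61 and 2.99. The corresponding differences with Hif-3 were 1.15, -2.23 and 1.16 for aldocb and 1.5, -1.18 and 1.14 for ldha. pgk1 did the same with Hif-3, at 0.74, -1.27 and 0.72. In all 3 genes the Hif-3 array lay above its control in replicates 1 and 3 and below it in replicate 2. pgam1a had the same signs, at 1.35, -0.15 and 1.14. So did pkma where it was measured, at -0.75 and 0.53 in replicates 2 and 3. For aldoaa all 3 differences with Hif-3 were above 0, at 1.07, 0.29 and 0.65.

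**Figure D2:**
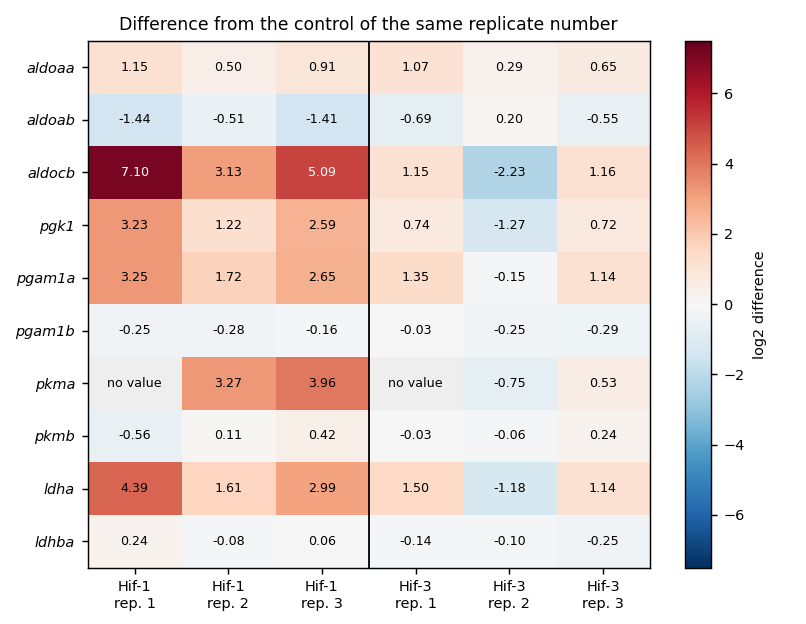
Log2 difference of each gene from the control array of the same replicate number, for Hif-1 (left) and Hif-3 (right). Colours run from blue (lower) to red (higher), and pkma has no value in replicate 1. The Hif-1 columns are red for aldocb, pgk1, pgam1a and ldha in all replicates. The Hif-3 column of replicate 2 is below 0 for all genes but aldoaa and aldoab, most strongly for aldocb, pgk1 and ldha.

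Set directly against Hif-1, the Hif-3 embryos had lower levels of aldocb and pkma, 2 of the 10 genes, where 0.926% of all genes were called, 0.737% lower and 0.189% higher. The difference was -5.08 ± 0.91 for aldocb (adjusted p = 0.0481), which makes it 33.8-fold lower, and -3.66 ± 0.24 for pkma (adjusted p = 0.0022), 12.6-fold lower. ldha (-2.51 ± 0.52, adjusted p = 0.0680), pgam1a (-1.76 ± 0.36, adjusted p = 0.0686) and pgk1 (-2.28 ± 0.52, adjusted p = 0.0856) did not pass. In all 5 genes every Hif-3 array lay below every Hif-1 array, as in 11.2% of all genes. With the replicate number as a block, 4 genes passed as lower: aldocb (adjusted p = 0.0333), pgam1a (0.0410), pgk1 (0.0432) and pkma (0.0088), in a fit that called 4.55% of all genes, 2.65% lower. With only the arrays of the groups compared in the fit, 5 genes passed, the 4 of the block and ldha (adjusted p = 0.0293), where 1.07% of all genes were called. The same kind of fit called 4 genes for Hif-1 against control, without aldoaa (adjusted p = 0.0558) and pgk1 (0.0563), where 3.56% of all genes were called. aldoaa differed by -0.18 ± 0.18 between Hif-3 and Hif-1 (95% interval -0.59 to 0.22). In the authors' matrix neither passed (adjusted p = 0.0759 for pkma and 0.0527 for aldocb). Only 1 of the 10 passed with the flagged values kept, where pkma was lost (adjusted p = 0.0816). Only 1 passed without a filter on dim probes or with normexp-corrected signals scaled to the 75th percentile, where aldocb was lost (0.0991 and 0.307). Of all genes 0.88%, 0.284% and 0.0307% were called in these fits. pkma passed whichever 1 Hif-1 or Hif-3 array was left out, while aldocb was lost without control replicate 3 or any 1 of the Hif-1 or Hif-3 arrays (adjusted p = 0.0716 to 0.156). Of the 31 probes 12 were lower, where 0.964% of all probes were called, 0.787% lower and 0.177% higher. The 12 were all probes of aldocb, those of pkma but A_15_P733066, A_15_P623101 of pkmb and A_15_P580707 of ldha. This other ldha probe differed by -2.81 ± 0.37 (adjusted p = 0.0124 over all probes), while the probe that stands for ldha did not pass. Without probes that passed the filter through the Hif-1 arrays alone, where they are high, 10 of 29 were lower, against 0.632% of all probes.

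The arrays were read on 4 scan days, and only day 3 held arrays of all groups: control replicates 2 and 3, Hif-1 replicate 2 and Hif-3 replicates 2 and 3. Hif-1 replicates 1 and 3 shared day 4 and a slide, with no array of another group on either. The part of that day and slide in their levels and their closeness was not tested. Within day 3 the differences between Hif-1 and control were 4.26 for aldocb, 3.67 for pkma, 2.36 for pgam1a, 2.20 for ldha, 1.72 for pgk1 and 0.75 for aldoaa. They rest on a single Hif-1 array, so only the differences are given. A fit with scan day as a blocking factor gave these same differences, since only day 3 bears on that comparison. It called none of the 10, where only 0.0205% of all genes were called, so this says nothing particular of the enzymes. Hif-1 replicate 2 and Hif-3 replicate 2 shared a slide, and on it Hif-3 was lower by -5.37 for aldocb, -4.02 for pkma, -2.80 for ldha, -2.49 for pgk1 and -1.88 for pgam1a as a log2 difference, with no test. With the slide as a random block the same 6 and 2 counts of called genes were obtained, where 6.73% and 1.07% of all genes were called.

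Other genes of the pathway were listed from textbook knowledge to place these enzymes. Of 27 such genes 17 were tested, and with Hif-1 6 rose and 1 fell, where 5.74% of all genes were called higher and 3.77% lower. Those that rose were gpia, a glucose phosphate isomerase (3.82 ± 0.61, adjusted p = 0.0130), tpi1b, a triose phosphate isomerase (3.26 ± 0.36, adjusted p = 0.00374), gapdhs, a glyceraldehyde phosphate dehydrogenase (4.95 ± 0.29), the enolases eno1a (5.61 ± 1.14) and eno1b (4.71 ± 0.50), and ldhbb. hk2, a hexokinase at the entry of the pathway, fell by 1.02 ± 0.24 (adjusted p = 0.0359), and it is named here because it was the single gene that fell. The median difference of the 17 was 0.74. With Hif-3 none of the 17 passed against control, and 4 were lower than with Hif-1, namely tpi1b, gapdhs, eno1a and eno1b.

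Relatives of the 10 genes were in the same list. ldhbb, the copy of ldhba, stood at -3.17, -2.35 and -2.98 in the controls, -1.65, -1.10 and -1.83 with Hif-1 and -2.97, -2.85 and -2.67 with Hif-3. The Hif-1 arrays lay above all others, and it rose by 1.31 ± 0.25 (adjusted p = 0.0215). pgam2, a muscle type mutase, differed with Hif-1 by 0.03 ± 0.38, pklr, the pyruvate kinase of liver and red cells, by -0.78 ± 0.65, and ldhd, which acts on D-lactate, by -0.47 ± 0.23. None of these 3 passed, and aldoca was not among the genes tested.

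**Figure D3:**
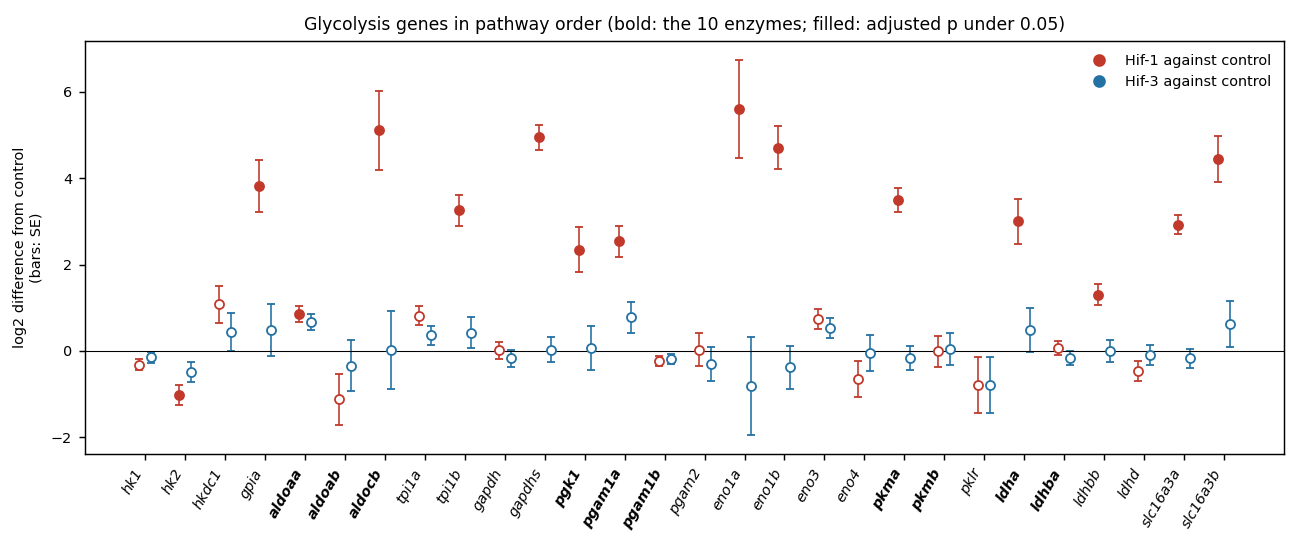
Log2 difference from control, with standard error bars, for tested glycolysis genes, with 1 left out, in the order of the pathway and the lactate carriers slc16a3a and slc16a3b, for Hif-1 (red) and Hif-3 (blue). Names of the 10 enzyme genes are bold, and filled points have an adjusted p under 0.05. Filled points are all red and lie between 0.85 and 5.61 except hk2 at -1.02.

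A list of 30 genes of the fates of pyruvate and of gluconeogenesis had 18 members tested. With Hif-1 2 of these rose and none fell, where 5.74% of all genes were called higher and 3.77% lower. The 2 were slc16a3a and slc16a3b, monocarboxylate carriers of the type that exports lactate in mammals. They were higher by 2.92 ± 0.22 (adjusted p = 0.00122) and 4.44 ± 0.53 (adjusted p = 0.00514). The next 4 by p did not pass: pcxb, a pyruvate carboxylase (-1.44 ± 0.38, adjusted p = 0.0503), pdp1, a phosphatase that activates pyruvate dehydrogenase (0.45 ± 0.12), and dlat (-0.69 ± 0.19) and pdha1a (-0.47 ± 0.14), subunits of pyruvate dehydrogenase. With the replicate number as a block 4 rose and 4 fell, in a fit that called 11.7% of all genes higher and 10.9% lower. Those that rose were slc16a3a, slc16a3b, pdp1 and pck2, and those that fell were pcxb, dlat, pdha1a and pdp2. With Hif-3 none passed against control, and both carriers were lower than with Hif-1. The probe of slc16a3a passed the filter on dim probes through the Hif-1 arrays alone, so its calls carry no weight.

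The pattern of aldoab over the arrays was closest to that of muscle genes. By the root mean square difference of centred levels over the 9 arrays, its nearest genes were acta1b, a skeletal actin (0.15), tnnc2.2, a troponin (0.15), and desma, a desmin (0.15), while aldoab itself varied by 0.83 about its mean. Of 12 listed markers of somites and muscle 10 were tested. Their summed signal, relative to the 75th percentile, was 37.5, 49.6 and 105.6 in control replicates 1, 2 and 3, 22.2, 33.6 and 46.7 with Hif-1 and 32.3, 47.7 and 74.1 with Hif-3. As for aldoab, replicate 3 was the highest and replicate 1 the lowest in each group. With Hif-1 9 of the 10 markers differed below 0, none fell and 1 rose, myhz2, a fast muscle myosin named here as the single case. Of all genes 5.74% were called higher and 3.77% lower. The myhz2 controls, at -7.85, -8.03 and -7.35, lay below the lowest signal that counted as well above background on those arrays. Its probe thus passed the filter on dim probes through the injected groups alone, so it had to be high there. Its calls and its differences from control carry no weight. With Hif-3 myhz2 differed from control by 3.98 ± 0.44 (adjusted p = 0.0544). With the replicate number as a block 8 of the 10 markers fell and 1 rose, again myhz2, which is given no weight. That fit called 10.9% of all genes lower and 11.7% higher. The part of muscle RNA in the difference of aldoab was not tested.

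**Figure D4:**
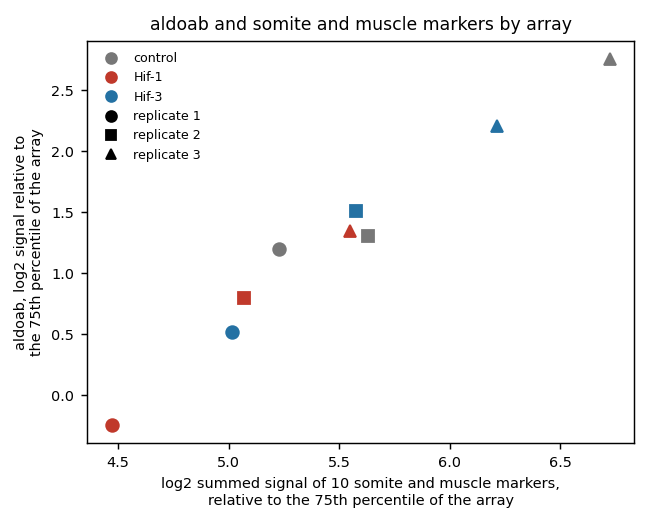
Level of aldoab (vertical axis, log2 signal relative to the 75th percentile of the array) against the log2 of the summed signal of 10 somite and muscle markers on the same scale. Colours are groups and shapes are replicate numbers. Hif-1 replicate 1 is the lowest and control replicate 3 the highest on both axes.

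Markers of other tissues were set beside the genes that rose. With Hif-1, 2 of 3 tested markers of the yolk syncytial layer rose, mxtx1 (2.09 ± 0.34) and mxtx2 (2.10 ± 0.44), and 2 of 3 of germ cells, nanos3 (0.80 ± 0.15) and dnd1 (1.04 ± 0.25). The probe of mxtx2 passed the filter on dim probes through the Hif-1 arrays alone, so its calls carry no weight. Of all genes 5.74% were called higher. None of the 4 tested of notochord, of neural tissue or of epidermis passed, and none of the 3 of blood and vessels. With the replicate number as a block ctslb, listed here under the yolk syncytial layer, and ddx4 of germ cells rose as well. All 3 tested genes of either list were then called higher, with mxtx2 given no weight. In the same fit krt4 of epidermis rose (0.41 ± 0.11, adjusted p = 0.0408) and gata1a of blood fell (-0.99 ± 0.25, adjusted p = 0.0378). That fit called 11.7% of all genes higher and 10.9% lower. The summed signal of the genes listed for the yolk layer ran from 217.4 to 233.1 in the controls, 279.8 to 357.1 with Hif-1 and 244.0 to 246.8 with Hif-3. That of the germ cell markers ran from 0.46 to 0.54, 0.83 to 0.93 and 0.62 to 0.85. The sum for the yolk layer is almost wholly ctslb, at a control mean of 7.81 log2 units, against -0.79 for mxtx1 and -6.94 for mxtx2. It therefore says little of the mxtx genes. Whether ctslb marks the yolk layer at all was not tested, and apart from it only mxtx1 of that list carries weight. The part of these tissues in the rise of the enzyme genes was not tested.

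By the same measure of likeness, pgk1 and ldha were each among the 3 genes nearest to the other. The genes nearest to aldocb were eno1a, eno1b and ndufa4b (root mean square differences of 0.64, 0.65 and 0.72, against 2.63 for aldocb about its mean). pgk1 was nearest to chka, a choline kinase (0.36), ldha (0.39) and gys1, a glycogen synthase (0.39), and ldha to chka (0.25), pnp5b and pgk1. For pgam1a they were adora2ab, an adenosine receptor (0.23), tdrd9 and cpox, and for aldoaa shhb (0.12), spsb4b and stra6l. For pkma, over 8 arrays, they were f9b (0.27), ctsl.1 and slc16a3a. The nearest genes were rab5if, actr8 and aldh6a1 for pgam1b, st6galnac3, gba3 and itga5 for pkmb, and plag1, xpr1b and wdr45b for ldhba, genes that did not pass with Hif-1. All these values are descriptions over the same arrays.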

How the data were processed

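RNA from 9 embryo pools was measured on Agilent arrays with a single dye, Cy3, 3 arrays for each group. The signal used is an intensity that the authors obtained with Feature Extraction, per the file headers, with no step between arrays. Flags of the spots, other columns that were deposited, hold 0 or 1. A mouse array is named in the labels, whereas the headers carry a zebrafish design. The authors normalized the deposited matrix of log2 values with GeneSpring, and its method and centring are not given in the sources used here. That matrix served as an alternative.

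Probes were named through unversioned RefSeq accessions and the table of assembly GRCz12tu, used for names alone. Of 43603 probes 25069 received a symbol. The headers name an older assembly, so no coordinates are given. Control spots were left out, and outlier-flagged spots were left out of the levels but kept in ranking the probes of a gene by brightness. None was saturated, and spots of a probe were averaged. A probe was kept if some group had it well above background on each of its 3 arrays. Log2 processed signals, less the array's 75th percentile, entered a linear model in limma 3.58.1 (R 4.3.3) that used all 9 arrays, gave each group a mean and moderated the variances. Calls were made at 0.05 after Benjamini-Hochberg adjustment across every gene, or every probe, in the fit. Exact permutation tests used scipy 1.17.1. On simulated data of 19549 genes for Hif-1 against control the fit recovered 60% of genes raised by 1 log2 unit. It recovered 92% of those raised by 2 and 80% of those lowered by 2. The fit treats both signs alike, so the shares for raised and lowered genes differ by the draw of genes. The simulated arrays were independent of each other, unlike the same-numbered arrays of the data.

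The labels number the replicates 1 to 3 in each group and the series text gives 3 independent experiments. Deviations from the group means correlated over 19243 genes in all 9 pairs of the same number (r = 0.109 to 0.583), so the number was taken to pair the arrays. Values without the block are given unless the block is named. Without the block the p-values measure the spread between pools of a group, which includes what same-numbered arrays share. With the block that shared part is taken out.

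The members and all lists were chosen with earlier results of these data known, so counts and medians of lists are descriptions. The text names every member and its probes, up to 6 genes of each pathway list with the smallest p for Hif-1 against control, relatives of the members in those lists, and the 3 genes nearest to each member in pattern. Genes named for another reason are said to be. The values of 1 gene of the glycolysis list are not reported here.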

Additional observations from a re-analysis of the deposited data

How the results depend on the processing

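The range of a difference over alternatives that keep all arrays was 0.74 to 1.04 for aldoaa with Hif-1 against control, 4.23 to 5.15 for aldocb, 1.72 to 2.49 for pgk1, 2.36 to 2.63 for pgam1a, 2.38 to 4.10 for pkma and 2.20 to 3.13 for ldha, so none of these 6 turned. Their calls depended on the setting. After normexp correction, scaled to the 75th percentile, 0 of the 10 genes and 0 of their probes passed with Hif-1 (5 of all genes did, and the median of all genes moved from -0.01 to -0.20), with 1 gene of the rest of glycolysis and 0 of the pyruvate list. Hif-3 against Hif-1 then gave 1 enzyme gene, 1 probe, 1 glycolysis gene and 0 of the pyruvate list. Of all genes 0.0307% were called there, and 0.045% of all probes. With normexp and quantile normalization together 6 genes passed with Hif-1, 4 of the pyruvate list, and 4 enzyme genes for Hif-3 against Hif-1. The shares of all genes called were 9.67% and 1.88%. Blocked by scan day, 0 genes of any of these lists passed in either comparison, where 0.0205% and 0% of all genes were called. No probe passed with Hif-1 against control, and 1 did for Hif-3 against Hif-1. Of all probes 0.0161% and 0.0964% were called. A single Hif-1 array bears on this fit and on the fit within scan day 3, from which no calls are drawn. Centred on the median of each array, which moved the median of all genes to -0.12, 6 enzyme genes and 6 of the pyruvate list passed with Hif-1, and over all genes the split was 880 higher and 1364 lower, against 1123 and 737.

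For Hif-3 against Hif-1 the enzyme genes called were 0 in the authors' matrix and 1 without a filter on dim probes or with flagged values kept. They were 4 with the mean of all probes and 5 with only the groups compared (19 probes), where Hif-1 against control gave 4 genes of the rest of glycolysis. In this order 0.905%, 0.284%, 0.88%, 0.967% and 1.07% of all genes were called, and 1.16% of all probes with only the groups compared. The 4 with the mean of all probes include pkmb, whose mean draws on A_15_P623101. That probe passed the filter on dim probes through the Hif-1 arrays alone, so this call is given no weight. With a filter of all 9 arrays 1 gene of the pyruvate list was lower in Hif-3 against Hif-1, where 0.747% of all genes were called. With the replicate block it was 4 enzyme genes there, 7 with Hif-1 against control, and 8 of the pyruvate list; among the rest of glycolysis eno3 and hkdc1 then rose, ldhd fell, and gpia and ldhbb were lower with Hif-3 than with Hif-1. Beside these and the marker calls given above, the block changed no other call of an enzyme gene, of the rest of glycolysis or of the pyruvate list. No alternative gave an enzyme gene for Hif-3 against control.

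Signs turned only for differences that had not passed. With Hif-1 against control pkmb was 1.75 with the mean of its probes (adjusted p = 0.0132), 0.60 within the day or with the day as a block, 0.00822 with normexp and quantile normalization and 0.00851 with the slide as a block, and ldhba was -0.0394 centred on the median and -0.00133 within the day or with the day as a block. With Hif-3 against control pkma was 0.23 with the brightest probe measured on all arrays or a filter of all 9, and 0.42 with the mean of probes, aldocb -0.0235 centred on the median, -0.0265 with normexp and quantile normalization and -0.54 within the day or with the day as a block, pgk1 -0.015 with the mean of probes and -0.28 by day, ldha -0.0205 by day, and pkmb -0.00152 in the authors' matrix, -0.00324 centred on the median, -0.00158 with normexp and the 75th percentile and -0.0102 with normexp and quantile normalization. With Hif-3 against Hif-1 pgam1b was -0.071 and pkmb -1.62 with the mean of probes, and pkmb was -0.51 by day, -0.0184 with normexp and quantile normalization and -0.00759 with the slide as a block. The mean of the pkmb probes draws on A_15_P623101, which passed the filter on dim probes through the Hif-1 arrays alone. Its calls are given no weight. The cause of the turned signs was not tested.

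Leaving out 1 array at a time, the enzyme genes called with Hif-1 ran from 2 to 6, their probes from 13 to 21, the rest of glycolysis from 3 to 7 and the pyruvate list from 2 to 5. For Hif-3 against Hif-1 they ran from 1 to 5, 5 to 18, 2 to 6 and 1 to 2. The enzyme gene counts without control replicate 2 or 3 include pkma, whose probe then had a single control value. Of all genes 1.91% to 10.5% were called with Hif-1 and 0.286% to 1.44% for Hif-3 against Hif-1. Of all probes it was 1.97% to 9.28% and 0.341% to 1.48%. For Hif-1 against control pkmb ranged from -0.34 to 0.31 and ldhba from -0.0344 to 0.16. For Hif-3 against control aldoab ranged from -0.74 to 0.16, aldocb from -0.96 to 1.09, ldha from -0.0477 to 1.05, pgk1 from -0.49 to 0.59, pkma from -0.56 to 0.24 and pkmb from -0.18 to 0.31. For Hif-3 against Hif-1 pgam1b ranged from -0.00729 to 0.10 and pkmb from -0.26 to 0.38. Dim probes limit pkmb and parts of pkma.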
